A study of Chlamydomonas reinhardtii with 31 samples.

Results

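The samples described here are 6 RNA-seq libraries of the green alga Chlamydomonas reinhardtii, out of 31 in the series. They come from the 3 strains named STA6-C2, STA6-C4 and STA6-C6 (CC-4565, CC-4566 and CC-4567), called rescued strains here, and were chosen by strain, time and library set alone. Each strain gave 1 library at 4 h and 1 library at 0.5 h after transfer to medium without nitrogen, and the comparison was paired by strain. Cells of every group had grown in the light in acetate medium with ammonium, and were then washed and diluted into the same medium without ammonium chloride. The rescued strains are 3 independent lines in which STA6, the gene lost in the starchless mutant sta6 (CC-4348), is present again. Libraries of sta6 and of CC-4349, labelled wild type, are used where they show how far the same genes moved in other cells. No library of a rescued strain at 0 h or with nitrogen was analysed here, so loss of nitrogen, washing, dilution and time in culture cannot be told apart. Each library is RNA of a whole culture, so a change in every cell and a change in some cells cannot be told apart either.

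When nitrogen runs out, Chlamydomonas stops dividing, stores carbon as starch and triacylglycerol, takes apart some of its photosynthetic machinery, and can turn into gametes. STA6 encodes the small subunit of ADP-glucose pyrophosphorylase, the enzyme of the first committed step of starch synthesis. Genes are given below by the IDs of the deposited table, which the files do not pair with names, so no roles are stated for them and no pathway list could be matched.

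Values are FPKM (reads per length of gene and sequencing depth) or log2(FPKM + 1). The sums of FPKM over the 17301 genes ran from 677743 to 723800 in the 4 h libraries and from 701899 to 728619 in the 0.5 h libraries. Low genes take whole multiples of the value of 1 read, which gave the relative depth of the libraries. With the STA6-C2 library at 0.5 h set to 1, the 4 h libraries had depths of 0.915 (STA6-C2), 0.949 (STA6-C4) and 1.00 (STA6-C6), and the 0.5 h libraries 1 (STA6-C2), 1.65 (STA6-C4) and 2.40 (STA6-C6). The early libraries of STA6-C4 and STA6-C6 were thus deeper than their 4 h partners, and those of STA6-C2 were close in depth. The gene Cre03.g188250.t1.1 was chosen because its values are near 0 in all sta6 libraries, so its low values there are fixed by the choice and check no label. It was at 466, 259 and 234 FPKM at 4 h and at 845, 312 and 339 FPKM at 0.5 h in the rescued strains, against 1.09 and 1.94 FPKM in sta6 of the same set at 4 h and 0.5 h. It was lower at 4 h in each rescued strain, with a log2 fold change of -0.55 ± 0.12 (SE, limma adjusted p = 0.00731), although the ranges of the 2 times overlapped, with STA6-C2 the highest strain at both.

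The first question was which transcripts differed between 4 h and 0.5 h in the rescued strains. Of 14063 genes tested, 6056 passed the threshold of an adjusted p of 0.05 in limma (43.1%), with 3115 higher (22.2%) and 2941 lower (20.9%) at 4 h. Most of these differences were small. The median size among genes that passed was 0.58 on the log2 scale, and the smallest that passed was 0.25. A rise of more than 1 was called in 594 genes (4.22%) and a fall of more than 1 in 406 genes (2.89%), and beyond 2 there were 39 genes in each direction (0.277% each). The median over all genes tested was 0.01 on the same scale. By rank alone, the values of all 3 strains at 4 h lay above all 3 at 0.5 h in 3782 genes (26.9%) and below them in 3578 genes (25.4%).

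**Figure D1:**
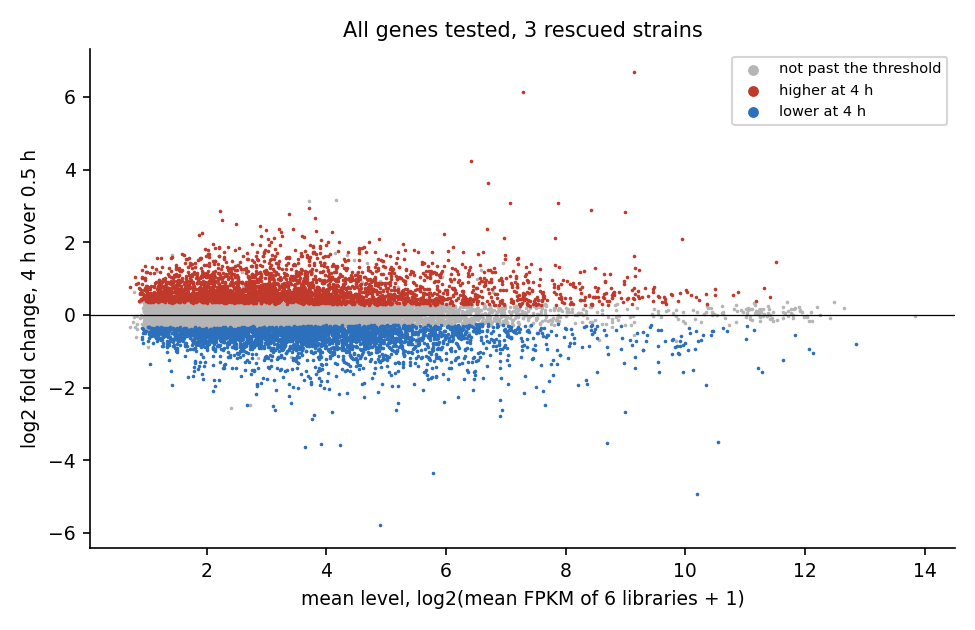
Log2 fold change of 4 h over 0.5 h (vertical axis) against mean level over the 6 libraries (horizontal axis, log2 scale) for the 14063 genes tested, 1 point per gene. Red points are the 3115 genes higher at 4 h, blue points the 2941 genes lower at 4 h, and grey points did not pass the threshold; changes of both signs occur at all levels.

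Genes passed the threshold at every level of expression. With the genes split into 4 equal groups by mean level, 1174 genes passed in the lowest group, up to 3.44 FPKM (33.4%), and in the highest group, above 20.8 FPKM, 1918 genes passed (54.6%). Changes beyond 1 on the log2 scale numbered 148 in the lowest group and 377 in the highest. The 1 added to each FPKM value makes changes of low genes look smaller, and its part in these counts was not tested. The 594 genes with a rise beyond 1 together made up 4.75%, 5.34% and 4.77% of the FPKM sum at 4 h in STA6-C2, STA6-C4 and STA6-C6, against 1.78%, 1.61% and 1.68% at 0.5 h. The 406 genes with a fall beyond 1 made up 2.77%, 3.49% and 2.88% at 4 h and 8.47%, 9.26% and 7.86% at 0.5 h. These sums describe genes chosen by the same values and carry no test.

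The gene with the largest rise was Cre12.g551300.t1.1. It stood at 1016, 1839.5 and 497 FPKM at 4 h in STA6-C2, STA6-C4 and STA6-C6, against 8.50, 15.6 and 4.38 FPKM at 0.5 h. Every 4 h value was far above every 0.5 h value, and STA6-C4 was highest and STA6-C6 lowest at both times. On the log2 scale 4 h exceeded 0.5 h by 6.69 ± 0.10 (SE, limma adjusted p = 4.02e-09). At 48 h the same strains still had 729.8, 1054 and 373 FPKM, in the same order.

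Cre12.g544450.t1.1 had the next largest rise. It was at 233, 550.0 and 141 FPKM at 4 h in STA6-C2, STA6-C4 and STA6-C6 and at 3.25, 3.59 and 1.77 FPKM at 0.5 h, again with no overlap and with STA6-C4 highest and STA6-C6 lowest at both times. The rise was 6.13 ± 0.26 on the log2 scale (SE, limma adjusted p = 9.43e-05). In contrast to the first gene, its level at 48 h, at 548, 715 and 326 FPKM, lay above that at 4 h in each strain.

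The fitted fall that ranked first, Cre05.g232400.t1.1, rests on single reads. It was listed at 0 in all 3 libraries at 4 h and at 85.8, 51.9 and 35.8 FPKM at 0.5 h in STA6-C2, STA6-C4 and STA6-C6. Once the values are set to the depth of each library, the 3 early values are equal, and they match the smallest step seen for this gene in the second set, taken as 1 read per library. The gene passed the threshold (limma adjusted p = 2.69e-05) with 1 read against 0 in each strain, and no fold change is given for it. Its value of 1 read is high in FPKM, so the filter on low values let it through. Read numbers could be recovered in this way for 154 of the genes tested, each with at most 30 reads in every second-set library. Of these, 36 passed the threshold (23.4%), a smaller share than the 43.1% of all genes tested. Recovery also needed the smallest value above 0 to be at most 3 steps, so other genes with as few reads may be missed.

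Cre02.g139950.t1.1 had the largest fall in the ranking among genes whose read numbers were not recovered in this way. It was at 58.1, 120.3 and 55.2 FPKM at 4 h in STA6-C2, STA6-C4 and STA6-C6 and at 2419, 2536 and 1847 FPKM at 0.5 h. The 2 times were well apart in each strain, with a log2 fold change of -4.93 ± 0.18 (SE, limma adjusted p = 2.01e-05). At 48 h the values were lower still, at 36.6, 44.4 and 21.5 FPKM.

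Cre10.g463350.t1.1, next in the ranking of falls, was added after its values were seen because the first gene gave no fold change. It was at 3.18, 3.23 and 6.35 FPKM at 4 h in STA6-C2, STA6-C4 and STA6-C6, against 122, 109 and 79.5 FPKM at 0.5 h. STA6-C6 was the lowest strain at 0.5 h and the highest at 4 h, so it showed the smallest difference. Its change on the log2 scale was -4.34 ± 0.31 (SE, limma adjusted p = 0.000663). By 48 h its level was at most 0.0678 FPKM in each strain, and it was listed at 0 in STA6-C6.

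**Figure D2:**
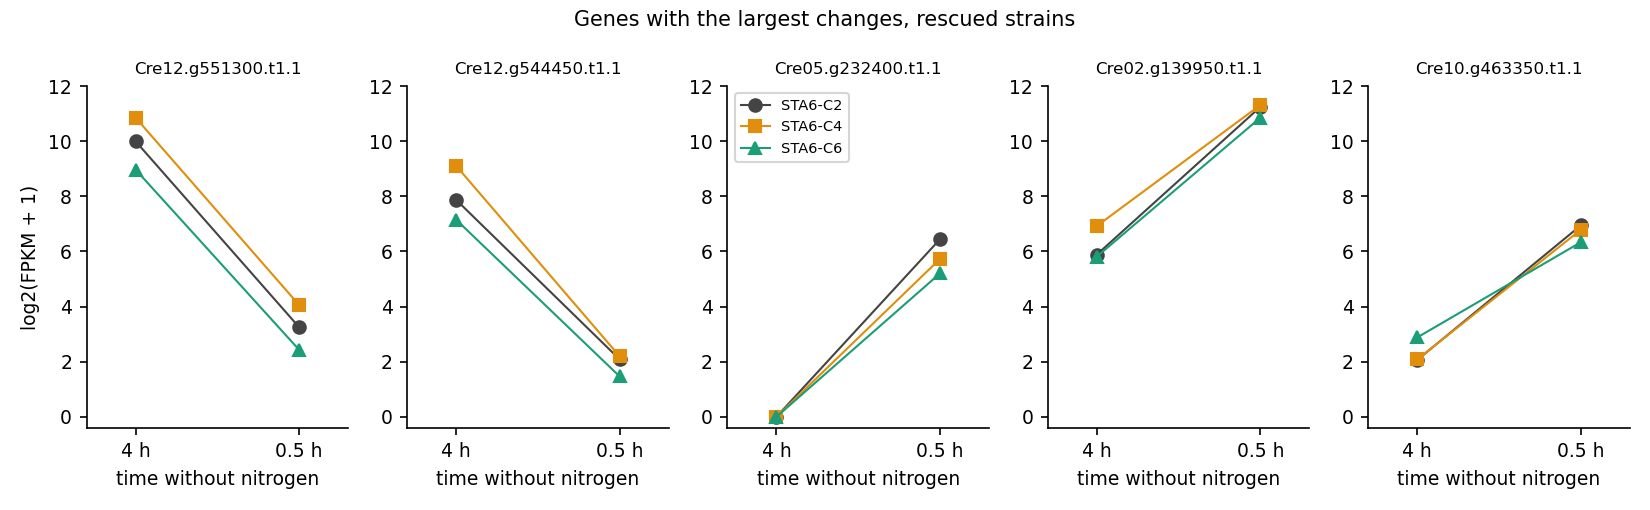
Levels of the 5 genes named above in the rescued strains at 4 h (left) and 0.5 h (right), as log2(FPKM + 1), with 1 point per library and lines joining the libraries of 1 strain. The 2 genes on the left are higher at 4 h and the 3 others lower at 4 h in every strain; the values of Cre05.g232400.t1.1 stand for 1 read against 0.

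Beyond single genes, the 15 largest rises and the 15 largest falls were described as groups. They are the top of the ranking among genes that passed, lay above the median level of 8.02 FPKM, and moved the same way in all 3 strains. Among the 15 rises, the mean over strains ran from 14.5 to 1118 FPKM at 4 h, with a median of 172 FPKM, and from 1.59 to 128 FPKM at 0.5 h, with a median of 7.13 FPKM. Among the 15 falls, the mean was between 0 and 246 FPKM at 4 h, with a median of 4.26 FPKM. The value of 0 is that of Cre05.g232400.t1.1, which rests on single reads. At 0.5 h the mean of the falls was between 22.5 and 2743 FPKM, with a median of 60.9 FPKM. Log2 fold changes ran from 2.32 to 6.69 for the rises and, leaving out Cre05.g232400.t1.1, from -4.93 to -2.61 for the falls. That gene was the 1 of these 30 whose recovered read numbers stayed at or below 30.

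Neighbours on the chromosome were compared as a description, with no test. Taking neighbours from the order of loci in RefSeq assembly Chlamydomonas_reinhardtii_v5.5, 8251 pairs of neighbouring genes were both tested. The gene next to one that rose also rose in 26.6% of cases, where 22.1% of the genes in these pairs rose. The gene next to one that fell also fell in 25.7% of cases, where 21.5% fell. For changes beyond 1 these shares were 6.25% against 4.27% for rises and 6.92% against 2.95% for falls. Only IDs that matched the assembly (73.2%) could be placed, so other neighbouring pairs are not counted here. Some large rises have IDs that are close in number. They are Cre12.g551300.t1.1 and Cre12.g551350.t1.1 (log2 fold changes of 6.69 and 3.64), and Cre03.g159250.t1.2 and Cre03.g159254.t1.1 (3.08 and 3.08). Neither pair was among the neighbours placed, so whether they lie side by side was not tested. Among the pairs placed, the 1 in which both genes changed by more than 2 was Cre17.g723350.t1.1 and Cre17.g723400.t1.1, named after their values were seen. At 4 h they were at 0.681, 1.37 and 1.06 FPKM and at 1.27, 1.51 and 1.34 FPKM in STA6-C2, STA6-C4 and STA6-C6. At 0.5 h they were at 8.82, 44.0 and 28.3 FPKM and at 9.82, 56.5 and 36.6 FPKM. STA6-C2 was the lowest strain for both genes at 0.5 h, and the early values spread about as widely in one gene as in the other. Their log2 fold changes were -3.54 ± 0.35 and -3.59 ± 0.55 (SE, limma adjusted p = 0.00178 and 0.0186).

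The 3 rescued strains changed in similar ways. Of the genes that passed, 6051 moved in the same direction in all 3 strains (99.9%), a share fixed in part by the test, and of all genes tested 9427 did so (67.0%). Across all genes tested, the change from 0.5 h to 4 h in STA6-C2 correlated with that in STA6-C4 at Pearson's r = 0.787 and with that in STA6-C6 at 0.821, and STA6-C4 correlated with STA6-C6 at 0.785. No library is shared between these changes, and genes are not independent replicates. The SD of the log2 change over the 3 strains had a median of 0.184 per gene and a 90th percentile of 0.395. The number of genes higher by more than 1 was 578 for STA6-C2 (4.11%), 735 for STA6-C4 (5.23%) and 716 for STA6-C6 (5.09%). The number lower by more than 1 was 693 for STA6-C2 (4.93%), 508 for STA6-C4 (3.61%) and 391 for STA6-C6 (2.78%), so STA6-C2, whose libraries were nearly equal in depth, had the most genes lower and the fewest higher. The part of depth in this order was not tested. All 3 strains passed 1 upwards in 310 genes (2.20%) and downwards in 227 genes (1.61%), and 16 genes passed 1 upwards in 1 strain and downwards in another.

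Libraries of other strains, which share no sample with the comparison, were then read for the same genes. In sta6 of the second set, 87.5% of the 3115 genes that rose in the rescued strains were higher at 4 h than at 0.5 h, against 50.1% of all genes tested, and 82.9% of the 2941 genes that fell were lower, against 49.7% of all. In CC-4349 of the second set these shares were 86.2% against 60.3% for rises and 73.3% against 39.5% for falls. The 594 genes with a rise beyond 1 had a median log2 difference of 1.13 in second-set sta6 and 0.66 in second-set CC-4349, with all genes at 0.00 and 0.08. The 406 genes with a fall beyond 1 had medians of -1.37 and -0.69. In the first set, the medians were 1.07 in sta6 and 1.18 in CC-4349 for the rises, -0.99 and -1.26 for the falls, and 0.30 and 0.13 for all genes. First-set sta6 gave the lowest shares in the same direction, with 74.1% of rises higher at 4 h and 49.5% of falls lower, where 62.8% and 37.2% of all genes were. Set against the median of all genes instead, 64.0% of rises lay above it and 62.2% of falls below it. In that strain 18.7% of genes were more than 1 apart on the log2 scale between 0.5 h and 0 h, against 44.6% in first-set CC-4349. Whether this bears on the lower shares in first-set sta6 was not tested. These shares compare single libraries per strain and time.

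**Figure D3:**
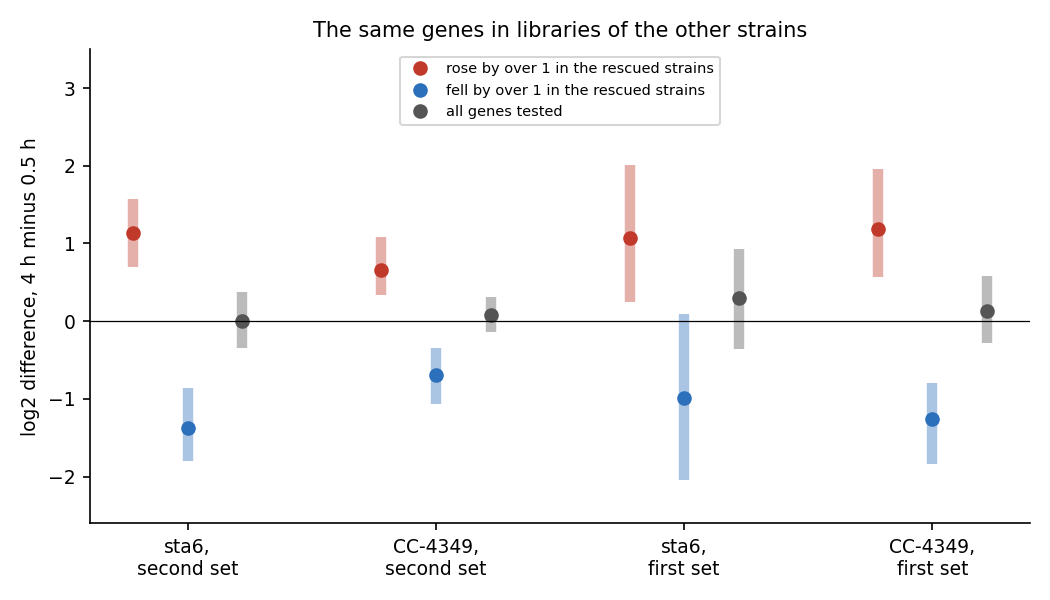
Log2 difference of 4 h minus 0.5 h in other strains (vertical axis) for genes that rose by more than 1 in the rescued strains (red, 594 genes), fell by more than 1 (blue, 406 genes) and all 14063 genes tested (grey). Points are medians and bars span the 25th to the 75th percentile over genes, with 1 library per strain, time and set; the red medians lie between 0.66 and 1.18 and the blue medians between -1.37 and -0.69.

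All 15 largest rises were higher at 4 h by more than 1 in second-set sta6, and 10 were in second-set CC-4349, 14 in first-set sta6 and 13 in first-set CC-4349. Of all genes tested, 5.82%, 2.35%, 22.6% and 11.1% were higher by more than 1 in these 4 pairs of libraries, in the same order. Of the 15 largest falls, 12 were lower by more than 1 in second-set sta6, 9 in second-set CC-4349, 11 in first-set sta6 and 12 in first-set CC-4349. These 15 include Cre05.g232400.t1.1, which rests on single reads and was not lower at 4 h in any of these pairs. The shares of all genes tested that were lower by more than 1 were 5.21%, 1.51%, 12.4% and 5.42%, so the background in first-set sta6 was the highest in both directions. Cre12.g551300.t1.1 was at 1534 FPKM at 4 h and 3.42 FPKM at 0.5 h in second-set sta6, and at 3821 and 113 FPKM in second-set CC-4349. Its log2 change in the rescued strains minus that in sta6 was -1.75, and minus that in CC-4349 it was 1.63. In the second set, with 1 library per time, the rise was thus larger in sta6 and smaller in CC-4349 than in the rescued strains. First-set CC-4349 held 1693 FPKM at 4 h and 2.21 FPKM at 0.5 h, so the smaller rise was not seen in that set. Cre02.g139950.t1.1 was at 29.7 FPKM at 4 h and 2606 FPKM at 0.5 h in second-set sta6 and at 365 and 4388 FPKM in second-set CC-4349. Cre10.g463350.t1.1 was at 2.36 FPKM at 4 h and 229 FPKM at 0.5 h in second-set sta6, but at most 0.387 FPKM at both times in second-set CC-4349, although first-set CC-4349 held 233 FPKM at 0.5 h and 2.55 FPKM at 4 h.

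The first set also has a library before nitrogen was removed, which shows where the 2 groups of genes stood at the start. Medians are given here relative to the median of all genes tested, which lay 0.41 above 0 h in sta6 and 0.66 above it in CC-4349 at 4 h. The 594 genes with a rise beyond 1 in the rescued strains lay below it at 0.5 h, at -0.44 on the log2 scale in sta6 and -0.79 in CC-4349. At 2 h they were still below, at -0.58 and -0.71, and at 4 h they were above, at 0.33 and 0.16. Relative to all genes their median thus stood lower at 0.5 h and 2 h than before removal, and higher at 4 h. At 4 h 61.8% of them lay above the median of all genes in sta6 and only 54.2% in CC-4349, where 50.0% of all genes did. The 406 genes with a fall beyond 1 were close to all genes at 0.5 h, at -0.16 in sta6 and -0.19 in CC-4349. They were well below them at 2 h, at -1.10 and -1.54, and at 4 h, at -1.46 and -1.76. The genes with the largest changes give examples. Cre02.g139950.t1.1 was at 4201, 3155, 283 and 62.6 FPKM at 0, 0.5, 2 and 4 h in first-set sta6 and at 4084, 2985, 148 and 45.6 FPKM in first-set CC-4349. Cre12.g551300.t1.1 was at 1.71, 0.545, 124 and 1323 FPKM in first-set sta6 and at 1.04, 2.21, 2231 and 1693 FPKM in first-set CC-4349, where the high level was already there at 2 h.

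**Figure D4:**
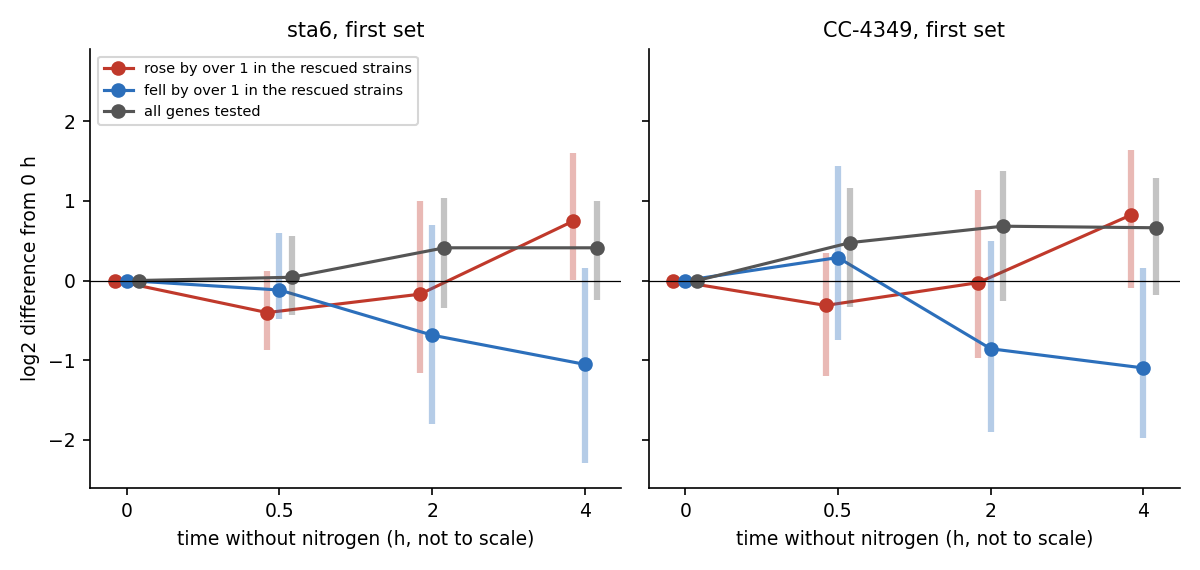
Median log2 difference from 0 h (vertical axis) at 0, 0.5, 2 and 4 h in first-set sta6 (left) and first-set CC-4349 (right) for genes that rose by more than 1 in the rescued strains (red), fell by more than 1 (blue) and all genes tested (grey), with bars from the 25th to the 75th percentile over genes. The red medians lie below 0 at 0.5 h and above 0 at 4 h, and the blue medians reach -1.05 in sta6 and -1.10 in CC-4349 at 4 h.

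Whether the change from 0.5 h to 4 h in the rescued strains differed from that in sta6 was tested in the 10 second-set libraries of these times. Of 14464 genes, 316 passed in limma (2.18%), with a more positive change in the rescued strains in 119 (0.823%) and a more negative one in 197 (1.36%). The sta6 arm had 1 library per time, taken to have the spread of the rescued lines, so a strain difference and a single library that stands apart cannot be told apart. Among the 119 genes, 64 had a positive mean change in the rescued strains and a negative one in sta6, 41 had negative changes in both, 13 had positive changes in both and 1 had a change of 0. Among the 197 genes, 116 had a negative mean change in the rescued strains and a positive one in sta6, 76 had positive changes in both and 5 had negative changes in both. The median change of the 197 genes was -0.15 in the rescued strains and 1.24 in sta6. As these genes were chosen by the same difference, the medians do not show in which strain it arose. The count was 12 with no replicate block and 552 without STA6-C2, and only 24 with no filter on low values, so its size depended on these settings.

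Cre02.g129550.t1.1 was higher at 4 h in the rescued strains, without overlap, and lower at 4 h in sta6. It was at 13.1, 17.7 and 18.0 FPKM at 4 h and at 4.23, 4.86 and 5.56 FPKM at 0.5 h in STA6-C2, STA6-C4 and STA6-C6. In second-set sta6 it was at 10.1 FPKM at 4 h and 25.1 FPKM at 0.5 h. The difference of change, rescued minus sta6, was 2.78 ± 0.22 (SE, limma adjusted p = 0.00287). Second-set CC-4349 held 13.7 FPKM at 4 h and 11.3 FPKM at 0.5 h, so its 2 times were close. In first-set CC-4349 the gene was at 4.54 FPKM at 4 h and 1.23 FPKM at 0.5 h, so the close values were not seen in that set. First-set sta6 held 9.53 FPKM at 4 h and 83.8 FPKM at 0.5 h, lower at 4 h as in the second set.

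Cre12.g553350.t1.2 was higher at 4 h in both, but by much more in sta6 of the second set. It stood at 62.8, 90.4 and 99.9 FPKM at 4 h and at 25.0, 39.3 and 44.8 FPKM at 0.5 h in the rescued strains, and at 145 and 4.48 FPKM at 4 h and 0.5 h in second-set sta6. The difference lay mainly in the low early sta6 value, and was -3.53 ± 0.19 (SE, limma adjusted p = 0.000439, and 0.0549 with no replicate block). First-set sta6 held 35.4 FPKM at 4 h and 5.62 FPKM at 0.5 h, against 277 and 43.0 FPKM in first-set CC-4349. There sta6 was lower at both times, but its rise was not larger than that of CC-4349. The 2 remaining genes that the ranking gave rest on few reads. Cre05.g232400.t1.1 had 0 reads at 4 h and 1 at 0.5 h in each rescued strain, and 2 reads at 4 h and 0 at 0.5 h in sta6. Cre35.g784050.t1.1 had 1 read at 4 h in each rescued strain and 1, 3 and 3 reads at 0.5 h, against 0 reads at 4 h and 1 at 0.5 h in sta6. Of the 316 genes, 12 had recovered read numbers, at most 30 in every second-set library.

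**Figure D5:**
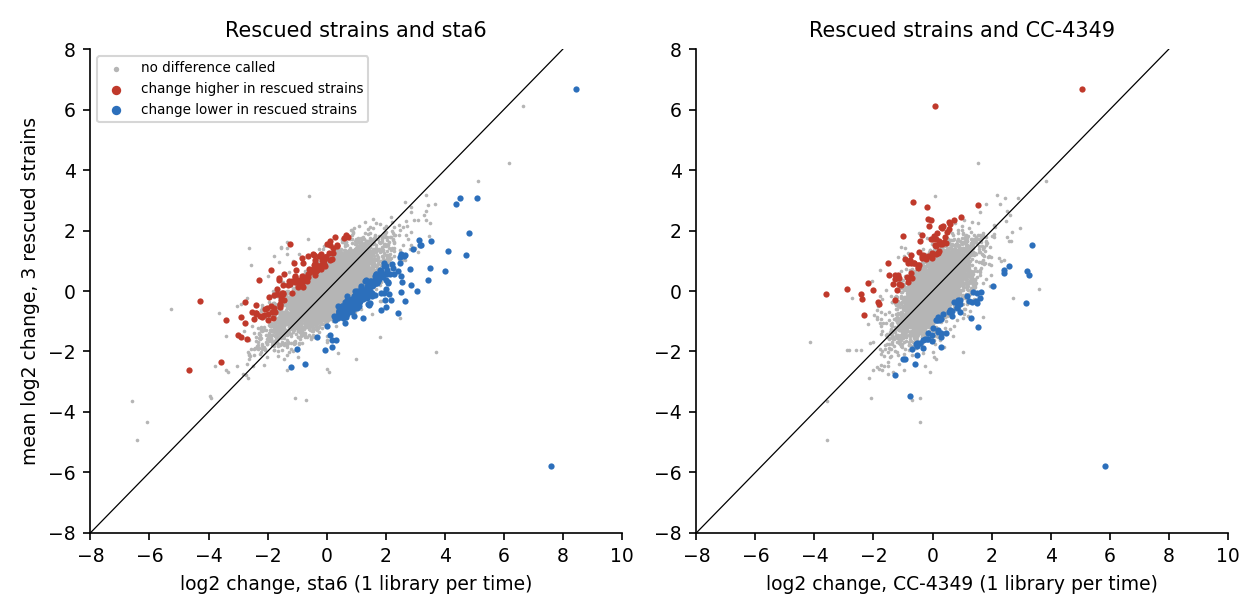
Mean log2 change from 0.5 h to 4 h over the 3 rescued strains (vertical axis) against the change in second-set sta6 (left) or CC-4349 (right), 1 point per gene for 14464 genes, with the line of equal change. Red points mark genes whose change was higher in the rescued strains and blue points lower; 316 genes passed against sta6 and 147 against CC-4349.

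Against CC-4349 of the same set, 147 of 14464 genes differed in their change in limma (1.02%), 83 with a more positive (0.574%) and 64 with a more negative change (0.442%) in the rescued strains. The median change was 1.17 in the rescued strains against -0.37 in CC-4349 for the 83 genes, and -0.91 against 0.50 for the 64 genes. These genes too were chosen by the same difference, so the medians do not show in which strain it arose. The same limit of 1 library per time held for CC-4349, and the count was 26 with no replicate block, 30 without trend and robust fitting and 51 with no filter, and ran from 48 to 412 when 1 strain was left out. Leaving out STA6-C4 gave 48 genes, leaving out STA6-C2 gave 346 and leaving out STA6-C6 gave 412. The balance of directions turned as well, to 21 more positive and 30 more negative with no filter and to 184 and 228 without STA6-C6, while quantile normalization gave 99 and 51.

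Cre11.g473950.t1.1 rose in the rescued strains and stayed under 1 FPKM in CC-4349 of the second set. It was at 20.4, 22.5 and 23.4 FPKM at 4 h and at 2.57, 1.85 and 1.61 FPKM at 0.5 h in STA6-C2, STA6-C4 and STA6-C6. In second-set CC-4349 it was at 0.251 FPKM at 4 h and 0.966 FPKM at 0.5 h, and in second-set sta6 at 54.9 and 7.92 FPKM. First-set CC-4349 was also under 1 FPKM at these times, at 0.295 FPKM at 4 h and 0.345 FPKM at 0.5 h. First-set sta6 held 43.8 and 3.15 FPKM. The difference of change, rescued minus CC-4349, was 3.60 ± 0.29 (SE, limma adjusted p = 0.00416). As the CC-4349 values lie below the pseudocount of 1, this size depended on it, at 5.02 with a pseudocount of 0.1 and 2.13 with one of 5, and the difference passed with each. Cre12.g544450.t1.1, described above, was at 48.6 FPKM at 4 h and 45.8 FPKM at 0.5 h in second-set CC-4349, a difference of change of 6.04 ± 0.53 (SE, limma adjusted p = 0.0265). In first-set CC-4349 the same gene was at 1161 FPKM at 4 h and 4.43 FPKM at 0.5 h, so the flat course was not seen in the other set. That difference missed the threshold without STA6-C2 (limma adjusted p = 0.0638), with a pseudocount of 5 (0.0976) and with no replicate block (0.121).

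Cre02.g090050.t1.2 fell in the rescued strains and was higher at 4 h in CC-4349 of the second set. It was at 12.0, 16.5 and 27.1 FPKM at 4 h and at 33.2, 43.2 and 50.3 FPKM at 0.5 h in STA6-C2, STA6-C4 and STA6-C6, against 86.0 and 28.9 FPKM at 4 h and 0.5 h in second-set CC-4349. The difference was -2.74 ± 0.25 (SE, limma adjusted p = 0.00542, and 0.126 with no replicate block). In first-set CC-4349 the gene was at 22.5 FPKM at 4 h and 59.4 FPKM at 0.5 h, lower at 4 h as in the rescued strains, so the opposite course was not seen in that set. At 48 h the rescued strains held between 1.26 and 1.89 FPKM. Cre05.g232400.t1.1 was again the top of the ranking on the other side, with 1 read in CC-4349 at 4 h and 0 at 0.5 h.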

How the data were processed

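RNA was sequenced from cells collected at set times after the move to ammonium-free medium, per the labels' protocols. The deposited table holds 1 value per gene and column. These were taken as FPKM made by the authors, from the values alone; no header states the unit, and RPKM would look alike. The submitters' processing notes name Bowtie. Its version and the build, annotation and counter were not given in the sources used here. Samples were grouped by strain, time and library set in the titles. Paired first-set columns were averaged as repeat runs of 1 sample. Apart from the strain, no label ties samples to separate cultures, so p-values measure only the spread between these samples, and this may be technical.

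Values were set to log2(FPKM + 1) and fitted with limma (version 3.58.1, R version 4.3.3), using trended and robust variances, two-sided tests and Benjamini-Hochberg adjustment over all genes tested. A gene was tested if 3 or more of the fitted libraries reached 1 FPKM. The pseudocount makes changes of low genes look smaller. The 4 h and 0.5 h libraries were fitted with strain as a block (2 residual degrees of freedom), since each strain gave both. Same-strain libraries deviated together from their time means, with correlations of 0.386, 0.225 and 0.308. Differences of change used 10 libraries with strain, time and time by class (2 residual degrees of freedom). Relative depth was read from values under 0.5 FPKM. Read numbers were recovered where all second-set values of a gene were whole multiples, up to 30, of 1 step within 0.02. The smallest value detected also had to be at most 3 steps, so some genes with few reads may be missed. The fits were tested on simulated data. Python 3.11.15, numpy 2.4.6, pandas 2.3.3 and matplotlib 3.10.9 were used.

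For each comparison the rule named the 2 largest rises and 2 largest falls among called genes with a mean over the median and 1 direction in all 3 strains, and the 15 largest were described as groups. Pathway lists rest on symbols and could not be matched: of 17301 IDs, 12666 (73.2%) matched a locus tag of RefSeq assembly Chlamydomonas_reinhardtii_v5.5, which pairs none with a symbol. The libraries, rules and lists were chosen with earlier results of these data known.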

Additional observations from a re-analysis of the deposited data

Results flagged for a closer look

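The change from 0.5 h to 4 h differed between the rescued strains and sta6 in 316 genes and between the rescued strains and CC-4349 in 147 genes, by a limma test of the difference itself. The sta6 and CC-4349 arms had 1 library per time and added nothing to the spread, so a strain difference and 1 library that stands apart cannot be told apart in any of these values. Against sta6 the named differences, rescued minus sta6, were 2.78 for Cre02.g129550.t1.1, -3.53 for Cre12.g553350.t1.2, 3.97 for Cre35.g784050.t1.1 and -13.40 for Cre05.g232400.t1.1. Against CC-4349, rescued minus CC-4349, they were 6.04 for Cre12.g544450.t1.1, 3.60 for Cre11.g473950.t1.1, -2.74 for Cre02.g090050.t1.2 and -11.63 for Cre05.g232400.t1.1. The fitted sizes for Cre05.g232400.t1.1 rest on at most 2 reads per library, and those for Cre35.g784050.t1.1 on at most 3 reads in the libraries compared. Both had values past the FPKM filter, and both passed limma with an adjusted p between 0.000828 and 0.00449. They are printed because the ranking gave them, not as sizes of a change.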

How the results depend on the processing

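The count of 6056 genes for 4 h against 0.5 h, out of 14063 tested, stayed within 1.5 times under all 13 alternatives. It was 5395 with no replicate block and between 4333 and 5111 with 1 strain left out. The filter also changed the number tested, with 4573 of 9219 genes at 5 FPKM and 5897 of 16601 with no filter. All named genes kept their direction in each alternative that tested them, and no gene named for this comparison lost its call where it was tested. Cre05.g232400.t1.1 did not pass the filter with 1 strain left out, and it was among the genes dropped for low read numbers. Its call was therefore not tested in those alternatives.

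The counts for differences of change moved widely, and the cause was not tested. Against sta6, 316 became 12 with no replicate block, 24 with no filter, 186 with quantile normalization, 198 with equal medians and 27 without trend and robust fitting, and lay between 248 and 552 with 1 strain left out. Against CC-4349, 147 became 26 with no replicate block, 224 with a pseudocount of 5, 51 with no filter and 30 without trend and robust fitting, and lay between 48 and 412 with 1 strain left out. Its majority of more positive changes turned with no filter and without STA6-C6. Leaving out the genes with recovered read numbers, at most 30, was chosen after seeing the data.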
